A study of Mus musculus with 14 samples.

Results

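Bpgm, Hk1, Pfkm, Gapdh and Pkm encode 5 enzymes of glucose breakdown. They were followed here as log2 ratios to A/J in the spleens of 2 mouse strains, AcB61 and AcB55. The genes were taken by name: 7 of the 7849 measured cDNA probes with a single gene symbol carried 1 of these 5 symbols, out of 6286 named genes that could be tested. Bpgm and Pkm had 2 probes each, and Hk1, Pfkm and Gapdh had 1 each. The groups were AcB61 spleen (8 arrays) and AcB55 spleen (6 arrays), and the second channel of each of these arrays held A/J spleen. AcB61 and AcB55 are recombinant congenic strains: inbred lines derived from A/J that carry scattered C57BL/6 segments. The title of the study names resistance to malaria. The labels name no infection, age, sex or treatment for either strain or for A/J, and do not say which arrays shared a mouse. A/J was not hybridised against itself, so a p-value covers the spread between arrays of a strain, which may be technical, and not the spread among A/J mice.

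Red cells lose their mitochondria as they mature and then depend on glycolysis for ATP. Hexokinase 1 (Hk1) starts the pathway by phosphorylating glucose, phosphofructokinase (Pfkm, the muscle-type subunit, also used in red cells) commits the sugar to breakdown, and glyceraldehyde-3-phosphate dehydrogenase (Gapdh) carries out its oxidation step. Bisphosphoglycerate mutase (Bpgm) diverts an intermediate into 2,3-bisphosphoglycerate, which lowers the oxygen affinity of haemoglobin. Pyruvate kinase ends the pathway: red cells and liver use the product of Pklr, and white blood cells and most other tissues that of Pkm. Both strains are known to carry a defect of Pklr, the red cell pyruvate kinase gene, which is why the pathway is of interest. Pklr itself was not analysed here, since no probe carried its name alone, and whether the Pkm spots also bound the related Pklr transcript was not tested.

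To show the sequence before the transcription starts of the genes that were higher and of Pkm, which was lower, the 250 bases before a start are printed here from RefSeq (build GRCm38.p6), 5′ to 3′ on the strand of the gene. Capitals mark matches to CCNCNCCC, the core bound by the KLF family that includes the erythroid factor KLF1, or to AGATAA, a form of the GATA factor site, on either strand. All 5 genes matched the table, with 1 start for Bpgm and Gapdh, 2 for Hk1 and Pkm and 4 for Pfkm.
Bpgm, chr6:34476106-34476355, plus strand: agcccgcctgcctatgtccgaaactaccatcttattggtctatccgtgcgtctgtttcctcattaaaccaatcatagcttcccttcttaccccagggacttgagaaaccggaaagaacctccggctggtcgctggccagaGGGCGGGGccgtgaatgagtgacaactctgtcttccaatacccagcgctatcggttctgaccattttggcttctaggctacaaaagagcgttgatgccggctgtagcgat
Hk1, chr10:62379909-62380158, minus strand: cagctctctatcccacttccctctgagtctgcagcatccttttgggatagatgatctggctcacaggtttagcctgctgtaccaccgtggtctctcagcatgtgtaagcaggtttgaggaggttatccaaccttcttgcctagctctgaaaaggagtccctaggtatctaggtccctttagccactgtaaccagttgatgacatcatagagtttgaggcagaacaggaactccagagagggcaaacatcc
Hk1, chr10:62340422-62340671, minus strand: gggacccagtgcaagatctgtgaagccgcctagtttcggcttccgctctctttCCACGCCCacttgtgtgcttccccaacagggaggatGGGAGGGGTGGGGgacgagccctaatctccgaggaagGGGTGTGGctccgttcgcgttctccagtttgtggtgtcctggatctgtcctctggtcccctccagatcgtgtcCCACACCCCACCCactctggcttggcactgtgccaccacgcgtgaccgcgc
Pfkm, chr15:98108221-98108470, plus strand: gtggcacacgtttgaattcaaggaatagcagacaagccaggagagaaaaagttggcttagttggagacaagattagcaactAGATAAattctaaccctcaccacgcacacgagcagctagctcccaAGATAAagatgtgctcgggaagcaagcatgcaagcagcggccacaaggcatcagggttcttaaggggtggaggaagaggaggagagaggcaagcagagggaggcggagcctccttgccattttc
Pkm, chr9:59656326-59656575, plus strand: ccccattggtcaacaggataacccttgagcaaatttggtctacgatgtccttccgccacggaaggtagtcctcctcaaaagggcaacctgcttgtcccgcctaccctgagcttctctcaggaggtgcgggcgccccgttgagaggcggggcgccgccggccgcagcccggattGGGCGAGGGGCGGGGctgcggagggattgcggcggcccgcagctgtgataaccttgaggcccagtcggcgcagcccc
CCNCNCCC stood 1 time in the Bpgm window, 103 to 110 bases before the start, and 2 times in the Gapdh window. In Pkm, the gene that was lower, it stood 2 times in the printed window. Before the other Pkm start it stood 11 times, the most of the 10 windows as counted. In Hk1 it stood 6 times before the more internal start and 0 times before the outer one. Overlapping matches were each counted in all windows, so the 11 in Pkm and the 6 in Hk1 lie in fewer separate stretches. The 4 Pfkm windows held AGATAA 1, 2, 1 and 0 times and CCNCNCCC 0, 0, 2 and 2 times, and the printed one is that with the most of the first motif. No AGATAA stood in the windows of Bpgm, Hk1, Gapdh and Pkm. Over all 32851 windows of this length, 45.9% held CCNCNCCC and 9.99% held AGATAA. A match or its absence describes these letters only.

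Values are log2 ratios of strain to A/J, given as the mean ± SD over arrays with n = 8 for AcB61 and n = 6 for AcB55. A ratio was called when its Benjamini-Hochberg adjusted p, taken over all 13045 tested features in limma, was under 0.05. The direction is likely strain over A/J, because the labels name the strain as channel 1 and A/J as channel 2 throughout, but the dyes of each array, the log base and the normalization are not given, and the label text breaks off after naming a dye swap. Base 2 was taken, and fold values rest on that. Were the direction turned, each higher and lower would change places, each fold would be inverted, and each rank from the top would become the same rank from the bottom. Only ratios were used, so neither spot strength nor the spleen identity of the RNA could be checked. Each array had values for 14197 to 14588 probes, and the number of arrays limits the precision. Within AcB61, arrays 2, 6 and 8 correlated with each other over all probes at 0.788 to 0.833, and arrays 3, 5 and 7 at 0.704 to 0.795. Pairs across these sets reached only -0.0894 to 0.151. Arrays 1 and 4 correlated with both sets (0.365 to 0.638). The labels name no reason for these sets. Whether they follow the dyes could not be tested, because the dyes of each array are not given. For some results that rest on the sets, values without a set are given. AcB55 arrays correlated at 0.403 to 0.748. In bulk spleen RNA, a change in the number of cells of a type and a change in RNA per cell cannot be told apart.

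In AcB61 spleen all 5 genes differed from A/J, 4 higher and 1 lower. Bpgm was the highest of them at 0.86 ± 0.40, 1.81-fold, followed by Hk1 (0.53 ± 0.28, 1.44-fold), Pfkm (0.34 ± 0.22, 1.27-fold) and Gapdh (0.23 ± 0.10, 1.18-fold). Pkm fell to 79.3% of the A/J level (-0.33 ± 0.31). Across all features 23.8% were called in AcB61, 10.5% higher and 13.3% lower. In AcB55 spleen 3 of the 5 genes were called: Bpgm (0.81 ± 0.37, 1.75-fold) and Pfkm (0.25 ± 0.14, 1.19-fold) rose, and Pkm (-0.69 ± 0.18) fell to 62.0% of A/J. Hk1 (0.23 ± 0.24) and Gapdh (0.077 ± 0.15) did not pass. The share of all features called in AcB55 was 20.7%, 9.77% higher and 10.9% lower. The 2 strains were measured against the same A/J strain, so the calls in one are not independent of those in the other.

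**Figure D1:**
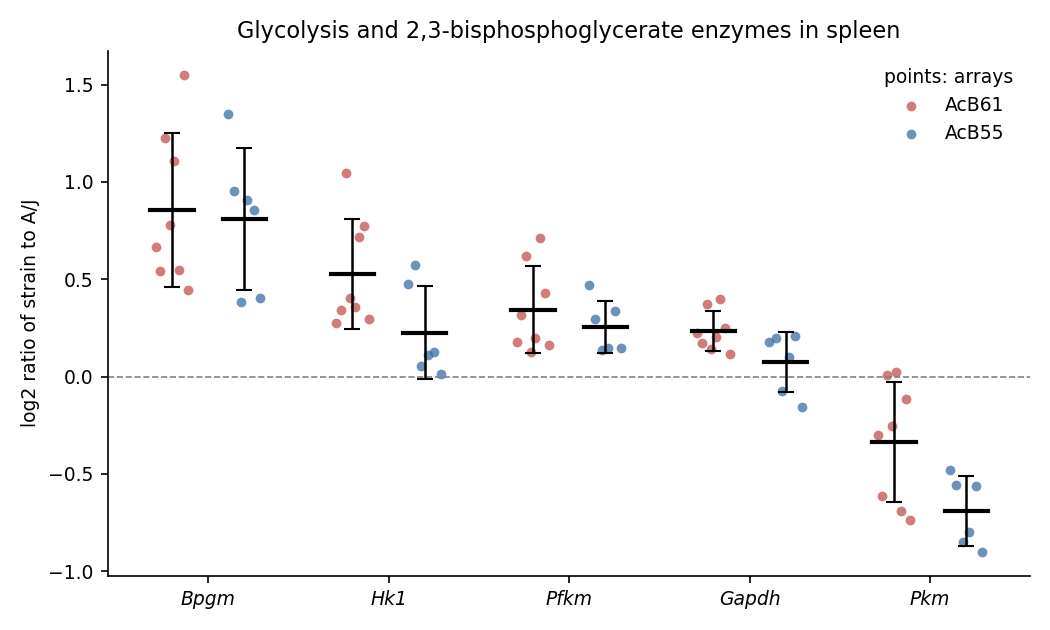
Log2 ratio to A/J of the 5 genes (vertical axis) on each AcB61 array (left, red, n = 8) and AcB55 array (right, blue, n = 6). Points are arrays, thick lines means and bars SD, and the dashed line is equality with A/J. Every Bpgm, Hk1 and Pfkm point lies above the line, and Pkm lies below it on all AcB55 arrays and on 6 of 8 AcB61 arrays.

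Bpgm, the mutase that makes 2,3-bisphosphoglycerate, ranked 16 from the top of 6286 named genes in AcB61 and 34 in AcB55. Its lowest, median and highest AcB61 arrays read 0.44, 0.72 and 1.55, against 0.38, 0.88 and 1.35 in AcB55. All 14 arrays were above A/J, and the ranges of the strains overlapped almost wholly. The adjusted p was 4.78e-05 in AcB61 and 0.000261 in AcB55, and both calls held under each alternative tried for them, with means of 0.59 to 1.07 in AcB61 and 0.64 to 0.89 in AcB55. Its 2 probes come from different cDNA clones. The first gave 0.87 ± 0.30 in AcB61 and 0.73 ± 0.33 in AcB55 (n = 5), the second 0.84 ± 0.55 and 0.85 ± 0.43 in the same order. Each probe on its own passed the test in each strain, at adjusted p between 5.82e-06 and 0.00125 over all probes.

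Markers of red cell precursors moved in the same direction as Bpgm. Of the 23 markers listed, 11 were measured, and 9 rose and 0 fell in AcB61, against 7 that rose and 1 that fell in AcB55. Their mean per array lay at 0.59 to 0.77 in AcB61 and 0.28 to 0.55 in AcB55. Alas2, which starts haem synthesis in these cells, read 0.92 ± 0.23 in AcB61 and 0.41 ± 0.33 in AcB55, whereas the alpha globin gene Hba-a1 read 0.040 ± 0.16 in AcB61 and -0.013 ± 0.15 in AcB55 and passed in neither. Of 15 measured markers of dividing cells, 14 rose in AcB61 and 13 in AcB55. Of all features, 10.5% were called higher and 13.3% lower in AcB61, and 9.77% higher and 10.9% lower in AcB55. The marker lists were chosen with earlier results of these data known, so these counts are a description only. The part of cell composition in the Bpgm ratio was not tested.

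Hk1 read 0.27 at its lowest, 0.38 at its median and 1.05 at its highest on AcB61 arrays, and 0.016, 0.12 and 0.57 on AcB55 arrays. All arrays were above A/J, but 4 of the 6 AcB55 arrays lay at 0.12 or below, and arrays 1 and 2 of AcB55 alone reached 0.48 and 0.57. The same 2 arrays had the highest mean of 4 measured granulocyte markers of 9 listed, 1.05 and 1.31, against -0.045 to 0.15 on the other 4 AcB55 arrays. Arrays 1 and 2 were also highest of the AcB55 arrays in the mean of red cell precursor markers (0.55 and 0.53, against 0.28 to 0.47). The same held for dividing cell markers (0.90 and 0.90, against 0.60 to 0.76). They were lowest in the mean of stroma and vessel markers (-0.48 and -0.44, against -0.41 to -0.11). Macrophage markers did not set these 2 arrays apart. The granulocyte marker mean was 0.27 to 0.75 on AcB61 arrays. The part of any of these cells in Hk1 was not tested. Hk1 passed in AcB61 (adjusted p = 0.000221) under each alternative, and in AcB55 it did not (0.114). Without AcB55 arrays 1 and 2 its AcB55 mean was 0.076.

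Pfkm read 0.13, 0.26 and 0.71 (lowest, median, highest) on AcB61 arrays and 0.14, 0.22 and 0.47 on AcB55 arrays. Its values were small but above A/J on all 14 arrays. The adjusted p was 0.000953 in AcB61 and 0.0204 in AcB55. The AcB55 call was lost without array 1, 2 or 5 (adjusted p = 0.0833, 0.0512 and 0.0634) and without arrays 1 and 2 together (0.187, mean 0.19). Another 2 probes list Pfkm together with Senp1, a SUMO protease gene also on chromosome 15, and were not counted as Pfkm. They read -0.16 ± 0.13 and 0.029 ± 0.16 in AcB61 and -0.065 ± 0.087 and -0.093 ± 0.076 in AcB55. The first was called lower in AcB61 (adjusted p = 0.0176 over all probes), opposite to the Pfkm probe, and the other 3 ratios did not pass. Which of the 2 genes they measured is not known. Of 11 muscle markers only Mylpf, a myosin light chain, was measured, at -0.034 ± 0.21 in AcB61 and -0.15 ± 0.13 in AcB55. The part of muscle tissue, which could also carry this subunit, in the Pfkm ratio was not tested.

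Gapdh, often taken as a constant in RNA measurements, read 0.11, 0.21 and 0.40 (lowest, median, highest) on AcB61 arrays. It read -0.15, 0.14 and 0.21 on AcB55 arrays, where 4 of 6 were above A/J. The AcB61 ratio was small but had the narrowest spread of the 5 genes and passed under each alternative (adjusted p = 0.00218). In AcB55 it was not distinguishable from A/J (adjusted p = 0.407, 95% interval -0.043 to 0.20).

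Pkm read -0.74, -0.28 and 0.023 (lowest, median, highest) in AcB61 and -0.90, -0.68 and -0.48 in AcB55. All 6 AcB55 arrays were below A/J, which put Pkm 55 from the bottom of the named genes there (adjusted p = 5.1e-05). In AcB61 it was 147 from the bottom (adjusted p = 0.00667), and the arrays fell apart by the sets named above. Arrays 2, 6 and 8 read -0.61, -0.69 and -0.74, arrays 1 and 4 read -0.30 and -0.25, and arrays 3, 5 and 7 read 0.0062, 0.023 and -0.11. Without arrays 2, 6 and 8 the AcB61 mean was -0.13 and no longer passed (adjusted p = 0.213), and without arrays 3, 5 and 7 it was -0.52 and passed at 0.000182. The 2 Pkm probes are spots of the same clone. They read -0.36 ± 0.26 (n = 7) and -0.36 ± 0.38 in AcB61 and -0.71 ± 0.22 and -0.67 ± 0.14 in AcB55.

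Among the white blood cells, markers of macrophages and B cells were low in the same samples, and those of other types were not all low. Of 11 macrophage markers 4 were measured and all 4 were below A/J, 2 of them called in AcB61 and 4 in AcB55. Of all features, 13.3% were called lower in AcB61 and 10.9% in AcB55. Their mean per array was -0.40 to -0.079 in AcB61 and -0.60 to -0.22 in AcB55. Blnk, a B cell signalling adaptor and the only one measured of 10 B cell markers, fell by 0.58 in AcB61 (n = 6) and by 1.07 in AcB55. Satb1, the only measured one of 11 T cell and NK cell markers, read -0.025 ± 0.12 in AcB61, which did not pass, and fell by 0.18 in AcB55 (adjusted p = 0.0303). Of the 4 granulocyte markers, S100a9 (1.10 ± 0.36) and Lcn2 (0.98 ± 0.44) rose and Hdc fell by 0.29 in AcB61, and Lcn2 (0.65 ± 0.81) rose in AcB55. Other cells were low as well. Of 7 measured markers of stroma and vessels, 5 fell and 1 rose in AcB61, and 6 fell and 0 rose in AcB55. Both measured markers of megakaryocytes and platelets, of 7 listed, fell in AcB61, and neither passed in AcB55. The part of any of these cells in the Pkm ratio was not tested.

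**Figure D2:**
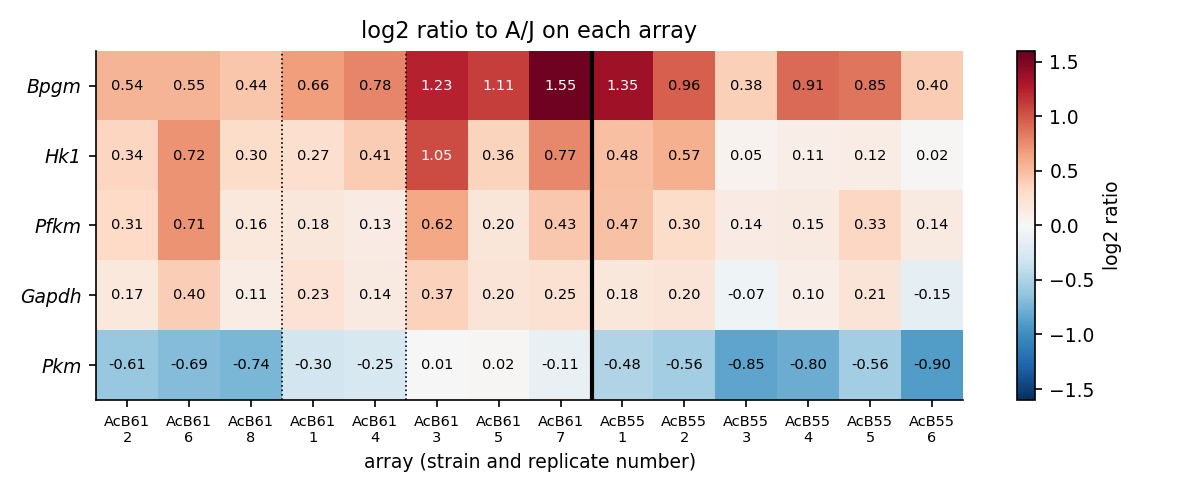
Log2 ratio to A/J of the 5 genes (rows) on every array (columns), AcB61 left and AcB55 right of the thick line. Dotted lines part AcB61 arrays 2, 6, 8, arrays 1, 4 and arrays 3, 5, 7, the sets given by correlation over all probes. Red is higher and blue lower than A/J. Bpgm and Pkm read highest on arrays 3, 5 and 7, whereas Hk1, Pfkm and Gapdh read high on arrays 3 and 6, which lie in different sets.

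Across AcB61 arrays the 5 genes showed 2 patterns. Bpgm, as the mean of its 2 probes, followed the sets. It read 0.44 to 0.55 on arrays 2, 6 and 8 and 0.66 to 0.78 on arrays 1 and 4. On arrays 3, 5 and 7 it read 1.11 to 1.55. The second probe kept this order, but the first did so only in part. The first probe read 0.82 on array 5, against 1.00 on array 4 and 0.80 on array 6. Pkm, as the mean of its spots, had the order of the Bpgm mean. The arrays with the highest Bpgm mean were thus those where Pkm was nearest to A/J. On array 5 only 1 of the 2 Pkm spots had a value. Other measures split by these sets to different degrees. The mean of the red cell precursor markers was 0.76, 0.77 and 0.59 on arrays 2, 6 and 8 and 0.69, 0.73 and 0.74 on arrays 3, 5 and 7. Nt5c3, a nucleotidase of maturing red cells, read 0.47, 0.44 and 0.29 on arrays 2, 6 and 8 and 1.14, 0.95 and 1.25 on arrays 3, 5 and 7, in the order of Bpgm. The granulocyte marker mean ran the other way, at 0.75, 0.73 and 0.61 on arrays 2, 6 and 8 and 0.49, 0.27 and 0.30 on arrays 3, 5 and 7. The part of these cells, or of the dyes, in the pattern of Bpgm and Pkm was not tested. Hk1 instead read highest on arrays 3 (1.05), 7 (0.77) and 6 (0.72), and Pfkm on arrays 6 (0.71) and 3 (0.62). On array 5, where Bpgm was 1.11, Hk1 read 0.36 and Pfkm 0.20. Gapdh also peaked on arrays 6 (0.40) and 3 (0.37). Because the AcB61 arrays fall into sets, no correlation between the 5 genes over all 8 is given.

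In AcB55 the 5 genes tended to be high or low on the same arrays. The 10 pairs had Pearson's r of 0.69 to 0.95 over 6 arrays, and the highest was that of Pfkm and Pkm (r = 0.946, exact permutation p = 0.0167, rho = 0.886, exact permutation p = 0.0333). Without the 2 arrays farthest from the Pfkm median, r was 0.961 over 4 arrays. The same step left r at 0.073 for Gapdh and Bpgm (0.845 over 6 arrays), 0.571 for Bpgm and Pkm (0.863) and 0.654 for Pfkm and Bpgm (0.845). After adjustment over the 20 relations computed in both strains, 0 passed: the smallest adjusted p among the AcB55 pairs was 0.0556 for r and 0.111 for rho by the exact permutation test. The relation therefore did not hold up at this number of arrays. The arrays share the A/J strain, and how their ratios were normalized is not given.

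**Figure D3:**
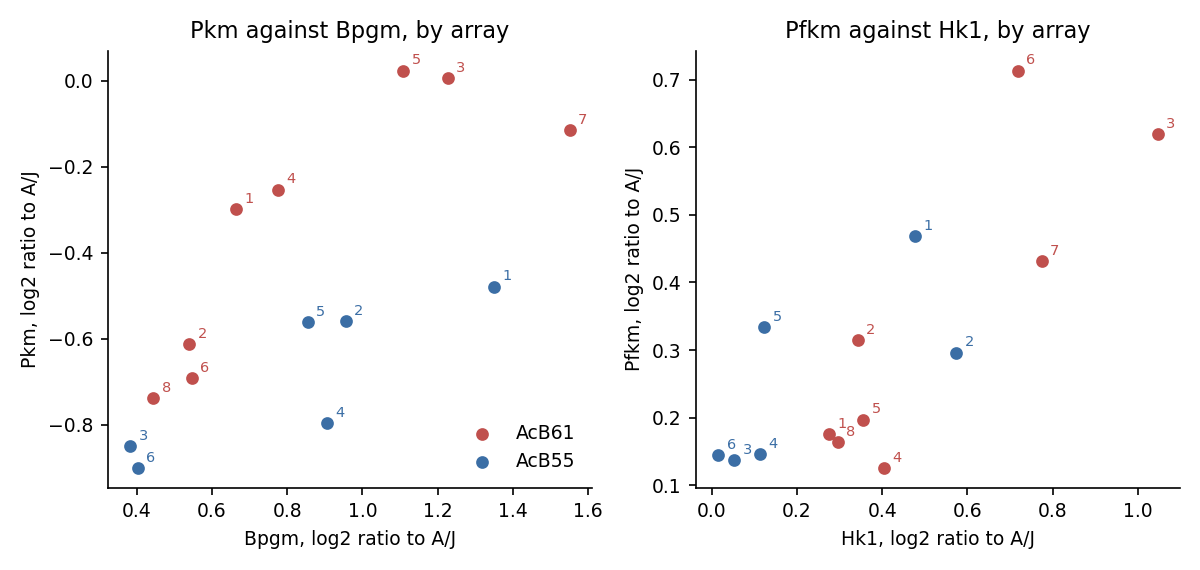
Pkm against Bpgm (left) and Pfkm against Hk1 (right), log2 ratios to A/J, with 1 point per array labelled by its replicate number, AcB61 in red and AcB55 in blue. In AcB61, Pkm and Bpgm are lowest on arrays 2, 6 and 8 and highest on arrays 3, 5 and 7, and at a like Bpgm ratio the AcB55 arrays lie lower in Pkm.

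The genes of most like pattern over the 14 arrays, among 5796 with a value on each, are a description without a test. These r values span both strains and the AcB61 sets, so differences between the strain means or between the sets may carry them. For Hk1 they were Ranbp1 (r = 0.931), Ube2r2 (0.924) and Mcrs1 (0.922), and for Pfkm they were Ppm1g (0.833), Sf3b4 (0.819) and Snrpa1 (0.814). Gapdh was nearest to Mrpl12 (0.936), a mitochondrial ribosomal protein, Cct2 (0.927), a subunit of a cytosolic chaperone, and again Snrpa1 (0.911), a protein of the spliceosome. Bpgm was nearest to Spsb3 (0.934), Rnf10 (0.929) and Rfc2 (0.915). Rnf10 was also the nearest in size, at 0.59 ± 0.48 in AcB61 and 0.52 ± 0.29 in AcB55. Pkm was nearest to Rpl29 (0.966), Sec24c (0.965) and Rpl7a (0.957). Rpl29 and Rpl7a encode proteins of the cytosolic ribosome, and their mean ratios lay higher than that of Pkm (0.040 ± 0.36 and 0.17 ± 0.32 in AcB61, -0.34 ± 0.22 and -0.12 ± 0.17 in AcB55).

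The difference between the strains was taken across arrays, as AcB61 minus AcB55 of the ratios to A/J. None of the 5 genes passed, against 12.3% of all features (5.29% higher and 6.98% lower in AcB61), and the number with an unadjusted p under 0.05 was 2, Pkm and Hk1. Pkm was the nearest to the threshold, with a mean of -0.33 in AcB61 and -0.69 in AcB55, a difference of 0.36 ± 0.13 (SE, adjusted p = 0.0743). Its 95% interval ran from 0.089 to 0.62, and 5 of 8 AcB61 arrays lay above the highest AcB55 array. Exact tests aside, this difference passed in only 5 of 26 alternatives. It passed when arrays were scaled to a common spread (adjusted p = 0.0472) and with array weights (0.0133). It also passed without AcB61 array 6 or 8 (0.0425 and 0.0364) and without arrays 2, 6 and 8 (0.00136). Over the 26 alternatives it ran from 0.17 to 0.56, with adjusted p up to 0.290. Without the 2 AcB55 arrays whose titles end in b it was 0.29 (adjusted p = 0.265). The Hk1 difference was 0.30 ± 0.13 (SE, adjusted p = 0.134, interval 0.031 to 0.57) and passed only without AcB55 arrays 1 and 2 (0.0318). For Bpgm the difference of 0.048 had an interval of -0.32 to 0.42, so these arrays do not separate equal levels from a difference of that size either way. Pfkm differed by 0.088 (-0.12 to 0.30) and Gapdh by 0.16 (-0.0020 to 0.32).

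**Figure D4:**
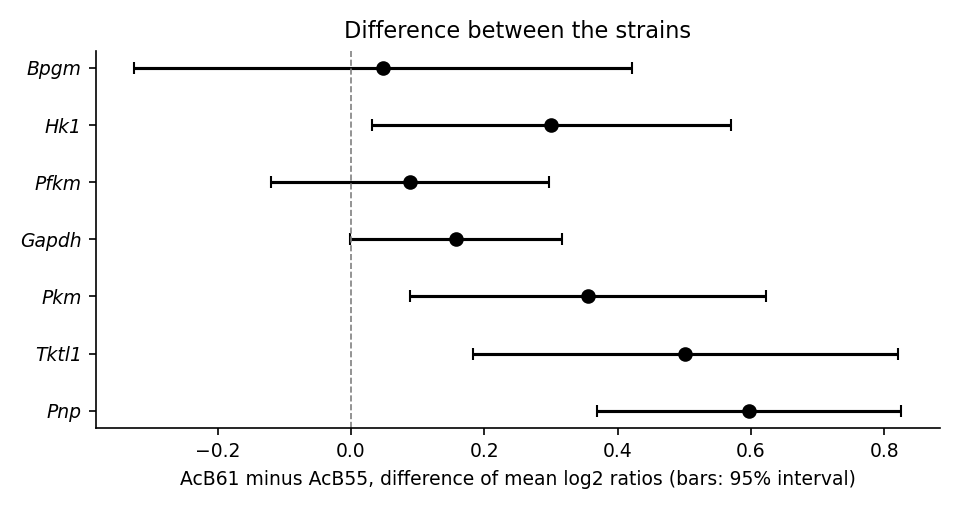
Difference of mean log2 ratios, AcB61 minus AcB55 (horizontal axis), with 95% intervals from the limma fit, for the 5 genes and for Tktl1 and Pnp. The Bpgm and Pfkm intervals span 0 widely, and Tktl1 and Pnp lie at 0.50 and 0.60.

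The rest of the pathway was read from lists of 91 further genes, of which 45 were measured. In AcB61, 7 rose, 0 fell and 38 did not pass (15.6% called, against 23.8% of all features), with a median of 0.032 against -0.00067 over all features. In AcB55, 8 rose, 2 fell and 35 did not pass (22.2% called, against 20.7%), with a median of -0.0043 against -0.0019. These shares moved with the arrays used: 12 of the 45 were called in AcB61 without arrays 2, 6 and 8, and 5 in AcB55 without arrays 1 and 2, so no order against all features is read from them. Of the other 7 measured genes of the core glycolysis list (Pfkl, Aldoa, Aldoc, Tpi1, Pgk1, Ldha and Ldhb), 0 passed by limma in either strain. Aldoa, the aldolase of muscle and red cells, read -0.16 ± 0.32 in AcB61 and -0.28 ± 0.21 in AcB55, and phosphoglycerate kinase (Pgk1) -0.15 ± 0.24 and -0.22 ± 0.19 in the same order. Pfkl, the liver-type subunit of phosphofructokinase, stayed at 0.032 ± 0.14 and 0.034 ± 0.22. A spot listed for Pgam1, the phosphoglycerate mutase next to Bpgm in the pathway, and for its pseudogene was lower than A/J at -0.35 ± 0.15 in AcB61 and -0.49 ± 0.12 in AcB55 (adjusted p = 0.000149 and 1.74e-05 over all probes), but it could not be assigned to either.

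Minpp1, a phosphatase that can also remove a phosphate from 2,3-bisphosphoglycerate, rose in AcB55 (0.36 ± 0.29, adjusted p = 0.00255). In AcB61 it read 0.15 ± 0.12 and did not pass (adjusted p = 0.139). The AcB55 ratio rested on arrays 1 and 2 (0.57 and 0.84, against 0.083 to 0.29 on the others) and was lost without them (adjusted p = 0.0565). Of 3 measured genes of sugar and lactate transport, Bsg and Slc2a4 rose in both strains, against 10.5% of all features in AcB61 and 9.77% in AcB55. Bsg, the membrane partner of the lactate carriers, read 0.72 ± 0.21 in AcB61 and 0.46 ± 0.13 in AcB55, and the glucose transporter Slc2a4 read 0.25 ± 0.26 and 0.47 ± 0.24 in the same order. The AcB61 call of Slc2a4 was lost without array 3 or 7 (adjusted p = 0.0735 and 0.0881), with array weights (0.18, adjusted p = 0.0598) and without arrays 3, 5 and 7 together (0.13, adjusted p = 0.261).

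In the pentose phosphate pathway, which makes NADPH for protection against oxidants, 2 of 5 measured genes rose in AcB61 and 1 in AcB55. For comparison with the counts in this paragraph, 10.5% of all features were called higher and 13.3% lower in AcB61. In AcB55 the shares were 9.77% and 10.9%. Tkt, transketolase, rose in both (0.38 ± 0.18 in AcB61 and 0.35 ± 0.21 in AcB55). Its ratio was 0.66, 0.61 and 0.48 on AcB61 arrays 2, 6 and 8 and 0.27, 0.18 and 0.23 on arrays 3, 5 and 7. The related Tktl1 passed in AcB61 alone (0.60 ± 0.30, against 0.10 ± 0.35 in AcB55). It read 0.95, 0.77 and 0.92 on AcB61 arrays 2, 6 and 8 and 0.68, 0.089 and 0.32 on arrays 3, 5 and 7. Among 13 genes of the fate of pyruvate, 0 passed in AcB61 by limma. In AcB55, Pdk3 (0.27 ± 0.18), a kinase that inactivates pyruvate dehydrogenase, and pyruvate carboxylase, Pcx (0.27 ± 0.21), rose. In AcB61 they read 0.12 ± 0.10 and 0.13 ± 0.085, and neither differed between the strains by limma (adjusted p = 0.241 and 0.294). Both AcB55 calls were lost without AcB55 arrays 1 and 2 (adjusted p = 0.0549 and 0.101). Pygb, a glycogen phosphorylase, was the only one of 9 genes of glycogen and other sugars to pass, at -0.50 ± 0.28 in AcB55. In AcB61 it read -0.18 ± 0.26 and split by the sets. It was -0.55, -0.47 and -0.40 on arrays 3, 5 and 7 and 0.015, -0.031 and 0.14 on arrays 2, 6 and 8. The Pygb difference between the strains did not pass by limma (adjusted p = 0.118).

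Nucleotide enzymes of red cells were represented by 3 genes, and all 3 were called in both strains. Of all features, 23.8% were called in AcB61 and 20.7% in AcB55. Nt5c3, the pyrimidine nucleotidase that clears nucleotides as reticulocytes mature, rose in both (0.76 ± 0.35 in AcB61 and 0.56 ± 0.20 in AcB55). Adk, adenosine kinase, rose as well (0.29 ± 0.20 and 0.27 ± 0.12 in the same order). Pnp, purine nucleoside phosphorylase, rose in AcB61 (0.25 ± 0.26) and fell by 0.34 in AcB55. Its lowest, median and highest arrays were -0.066, 0.18 and 0.70 in AcB61, against -0.49, -0.35 and -0.092 in AcB55, and the ranges did not overlap. Without AcB61 arrays 3, 5 and 7 the Pnp mean in AcB61 was 0.093 (adjusted p = 0.307), and without AcB55 arrays 1 and 2 it was -0.28 in AcB55 (adjusted p = 0.0801). The AcB55 call of Adk was also lost without those 2 arrays (adjusted p = 0.118).

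**Figure D5:**
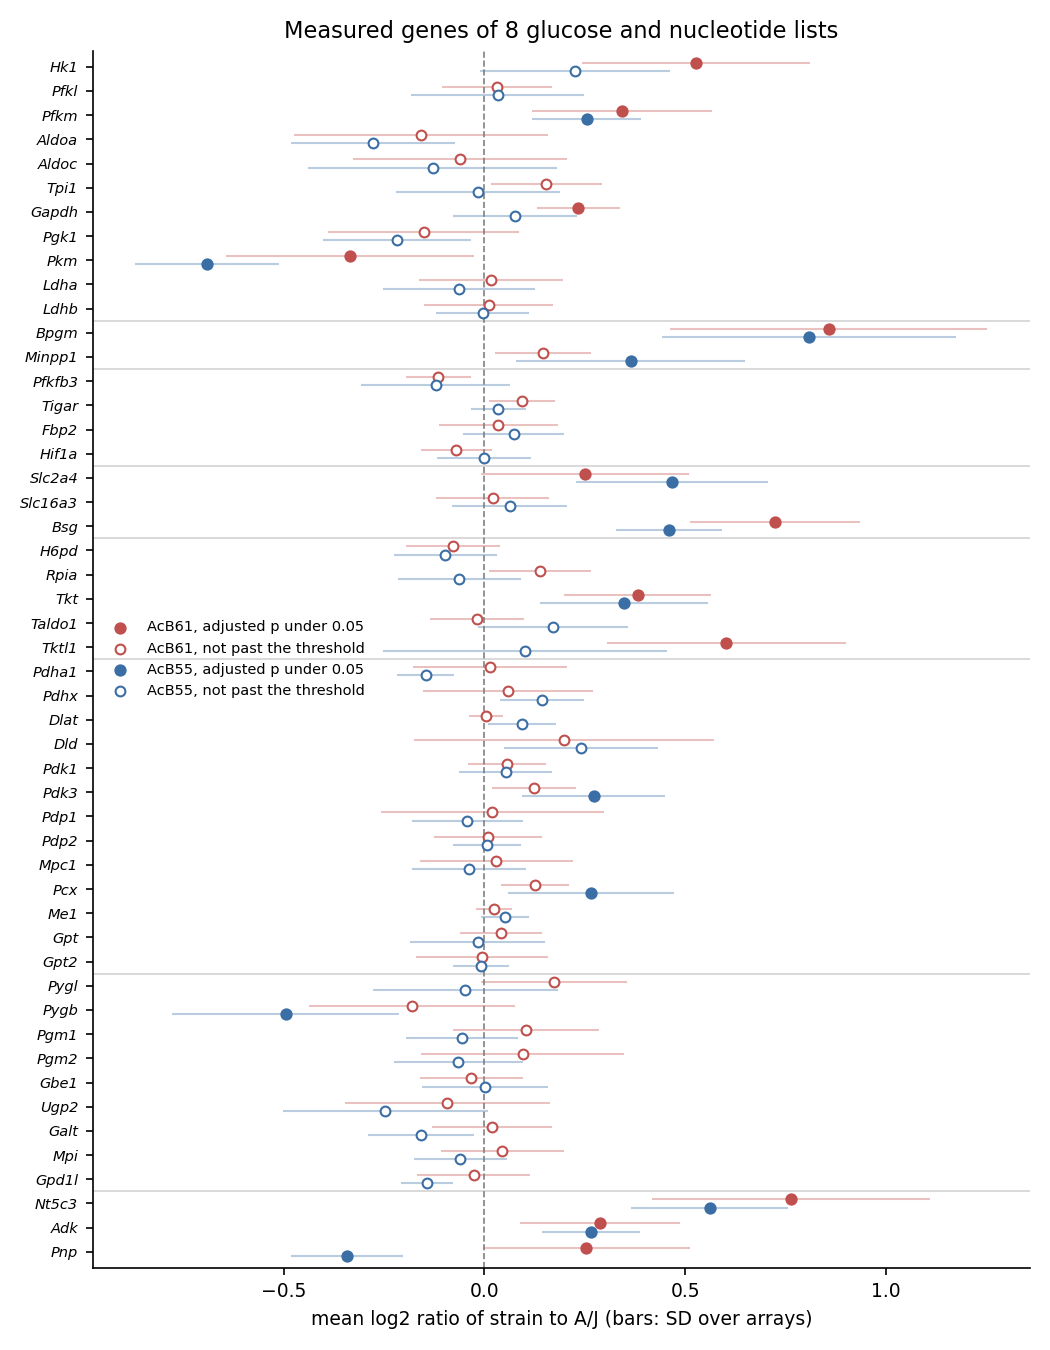
Mean log2 ratio to A/J (horizontal axis) with SD over arrays of each measured gene of the 8 lists, AcB61 (red) above AcB55 (blue) for each gene, with lists parted by grey lines. Filled points passed the test at an adjusted p under 0.05, and among the 11 measured core glycolysis genes these are Hk1, Pfkm, Gapdh and Pkm in AcB61 and Pfkm and Pkm in AcB55.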

How the data were processed

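The table deposited by the authors holds a log2 ratio of the 2 channels per probe and array, where base 2 was taken because the base is not given. Per the labels' protocols, RNA extracted with TRIzol was labelled with Cy3 or Cy5, images from a ScanArray scanner were quantified with QuantArray 3.0, and the data went through GeneSpring. How the ratios were normalized is not given. Array medians lay between -0.0232 and 0.00835, and values were used as deposited. Of 15247 rows, 14612 had a value. Symbols were those of the array platform's annotation, and the gene IDs of all 5 genes matched RefSeq. Probes of a gene were averaged per array, and features with at least 3 values per strain were tested.

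Tests used limma 3.58.1 in R 4.3.3 (lmFit with a mean per strain over 14 arrays, no covariate, eBayes) with Benjamini-Hochberg adjustment over all features, two-sided. The fit was tested on simulated data. Relations used exact permutation tests in Python 3.11.15 with scipy 1.17.1. Named genes are the 5 enzymes, their isoenzymes and neighbours, list genes past the threshold, and the 3 genes of highest correlation with each enzyme. Marker genes, Aldoa and array values named outside this rule were chosen after values were seen. The 5 genes and the lists were chosen with earlier results of these data known. Alternatives covered centring, scaling, missing values, weights, moderation, separate strain fits, single probes, exact tests over arrays, and arrays left out.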

Additional observations from a re-analysis of the deposited data

Results flagged for a closer look

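Pnp and Tktl1 were picked out because their ratios to A/J differed between the strains by the limma test of the difference itself. Pnp was higher in AcB61 by 0.60 ± 0.11 (SE, adjusted p = 0.00265), with means of 0.25 in AcB61 and -0.34 in AcB55. Tktl1 was higher in AcB61 by 0.50 ± 0.15 (SE, adjusted p = 0.0388), with means of 0.60 in AcB61 and 0.10 in AcB55. It was past the threshold without AcB55 array 1 or 2 or AcB61 array 5 or 7 and lost it without any other single array (highest adjusted p = 0.111, without AcB55 array 6). Without AcB61 arrays 2, 6 and 8 it was 0.33 (adjusted p = 0.132), and without the 2 AcB55 arrays whose titles end in b it was 0.41 (adjusted p = 0.182). Single arrays were tested by the gap between the most extreme array of a strain and the next one. By this test no array stood apart for the 5 enzymes or the 11 further genes named from the lists. It covered 32 groups of values, where chance flags about 5%. The test can miss 2 arrays that are high together, such as AcB55 arrays 1 and 2 for Hk1 and Minpp1.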

How the results depend on the processing

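The calls of Bpgm, Hk1, Pfkm and Gapdh in AcB61 and of Bpgm and Pkm in AcB55 held under each alternative tried for them. Leaving out AcB55 arrays 1 and 2, AcB61 arrays 2, 6 and 8, or AcB61 arrays 3, 5 and 7 was chosen after seeing the data. Pfkm in AcB55 was 0.19 without AcB55 arrays 1 and 2 (not called) and 0.21 to 0.28 with 1 array left out. Pkm in AcB61 was -0.13 without arrays 2, 6 and 8 (not called). Hk1 in AcB55, at 0.23, passed without AcB61 arrays 3, 5 and 7, which changes only the shared spread (adjusted p = 0.0397), and by the unadjusted exact sign-flip test (p = 0.0312, the smallest it can give).

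Of the differences AcB61 minus AcB55, that of Bpgm turned to -0.019 with array weights, -0.034 without the 2 AcB55 arrays whose titles end in b, -0.21 without AcB61 arrays 3, 5 and 7, and -0.0076 for its second probe, and ran from -0.051 to 0.16 with 1 array left out. That of Pkm passed at 0.38 with scaled arrays, 0.39 with weights and 0.56 without AcB61 arrays 2, 6 and 8. It was 0.30 to 0.41 with 1 array left out. Exact tests aside, it passed in 5 of 26 alternatives, and its lowest value was 0.17. Hk1 passed at 0.45 without AcB55 arrays 1 and 2. By the unadjusted exact permutation test Pkm (0.36, p = 0.0323) and Gapdh (0.16, p = 0.0423) were under 0.05.

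Features called for the difference numbered 1601, and 2816 with weights, 705 without the arrays ending in b, 2545 without AcB61 arrays 2, 6 and 8, 2781 without 3, 5 and 7, and 854 to 1694 with 1 array left out. Pathway genes called for the difference numbered 2, and 4 with weights or without AcB55 arrays 1 and 2, 7 without AcB61 arrays 3, 5 and 7, and 1 to 2 with 1 array left out. Without AcB55 arrays 1 and 2 they numbered 11 in AcB61 and 5 in AcB55, and without AcB61 arrays 2, 6 and 8 they numbered 12 in AcB61. The cause was not tested. Single pathway genes lost a call 22 times over all alternatives. No paired analysis was possible because the labels give no number that ties an AcB61 array to an AcB55 array. Signal over background was not used here, so its limit on each ratio is unknown.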
